A study of Mus musculus with 178 samples.

Results

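Bulk RNA-seq libraries of Day 9 whole blood from 15 responders and 30 non-responders to PD-1 blockade were compared across genes, 45 of the 178 libraries of the series. The members were chosen by the day and the response given in the sample labels. The labels of 1 mouse of the 4-digit series conflict, since it is a non-responder on Day 9 and in its Day 4 and Day 24 libraries but a responder on Day 17. Without this mouse, 481 genes were higher and 1 lower at the thresholds given below. All were C57BL/6J mice of 6 to 8 weeks that carried 4MOSC1 tumors, a carcinogen-induced oral squamous carcinoma line placed in the tongue or buccal mucosa, and all received an antibody against PD-1 (clone RMP1-14) every 3 days. The first dose is given in the sources as Day 4, after the bleed of that day, or as Day 7. In either case it came after the Day 4 bleed, which the study calls pre-treatment, and before the Day 9 bleed. No untreated or tumor-free group was part of these libraries, and response was scored on tumor size. Blood was drawn from behind the eye into TRIzol and libraries were made from polyA RNA with the SMARTer mRNA-Seq kit. The ear tags fall into a 4-digit series (11 responders and 7 non-responders) and a 3-digit series (4 responders and 23 non-responders), and what the series stand for is not given in the sources used here.

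Blood RNA is dominated by red cells. Reticulocytes, the youngest circulating red cells, still hold large amounts of globin mRNA and of the last transcripts of red cell maturation, among them those for heme synthesis, the membrane skeleton and the removal of mitochondria. White cells, which carry the antigen receptors, cytotoxic granules and checkpoint receptors that PD-1 blockade acts on, contribute a small share of such RNA. A whole-blood comparison therefore shows the mixture, and fewer cells of a type cannot be told apart from less RNA per cell.

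In Day 9 blood, responders had more RNA of the red cell programme, of 3 of 7 apolipoprotein L genes and an Apol pseudogene, and of 15 of 78 nuclear genes of the respiratory chain and ATP synthase, relative to the typical gene. Of 12608 genes tested, 458 (3.63%) were higher and 2 (0.0159%) were lower in responders when called at an adjusted p no greater than 0.05 and a change of at least 1.5-fold (quasi-likelihood test of edgeR, Benjamini-Hochberg). At adjusted p alone, 1189 genes (9.43%) were higher and 498 (3.95%) were lower, the lower ones by small folds. Leaving out the second responder of the 3-digit tag series, in tag order, gave 495 higher and 34 lower genes at both thresholds. The 458 genes had a median log2 fold change of 0.82, against -0.02 over all genes tested. These differences moved with the share of counts taken by haemoglobin genes and with the ear tag series, and no gene passed both thresholds once both were covariates (1718 genes at an unadjusted p under 0.05, smallest adjusted p 0.0561).

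**Figure D1:**
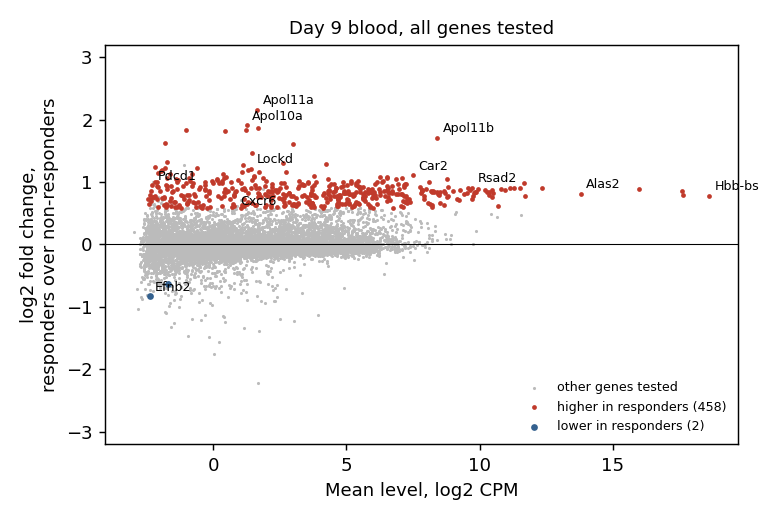
Log2 fold change of responders over non-responders (y axis) against mean level in log2 CPM (x axis) for the 12608 genes tested in Day 9 blood. Red points are the 458 genes higher in responders and blue points the 2 lower ones (adjusted p at most 0.05 and at least 1.5-fold); the Apol genes stand above the band of red cell genes that runs to the highest levels.

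The libraries held 33774996 to 63344659 counts (median 45756732). Haemoglobin genes took most of them, which left 4795959 to 14763151 counts for all other genes. The median of these other counts was 8101069 in responders and 9988337.5 in non-responders. Responder libraries had a median of 16122 genes with a count and non-responder libraries 17296.5, so that responders were sequenced less deeply outside haemoglobin. Genes of B, T and NK cells, neutrophils, monocytes and platelets were all detected, as blood should show, while the 14 eye and orbital gland markers summed to 0.02 to 0.39 TPM per library. Of 33 mucosal epithelium markers, 4 were at 0 in every library, and the list summed to 7.91 to 42.69 TPM in responders (median 14.86) and 13.56 to 83.12 TPM in non-responders (median 32.025). Its basal keratin Krt14 had a log2 fold change of -2.23 (standard error, SE, 1.01, adjusted p = 0.151), which did not pass. That value rested on single mice. With 1 mouse left out it ran from -3.94, which passed at adjusted p alone (adjusted p = 0.0189), to -1.18 (adjusted p = 0.452). Of 5 sex-linked genes examined, the 4 Y-linked ones were listed at 0 TPM in all 45 libraries. The other, Xist, ran from 93.6 to 171 CPM in responders and from 72.7 to 205 CPM in non-responders. The study states that mice of both sexes were used, and the sex of the mice of these libraries was not tested.

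Haemoglobin genes took 82.7% ± 3.27 of counts in responders (SD, n = 15) and 78.2% ± 3.69 in non-responders (SD, n = 30). The difference of the means was 4.47 percentage points, larger than nearly all differences between relabelled groups (permutation test, two-sided, p = 0.00035). Responders ranged from 76.7% to 87.2% (median 83.1%) and non-responders from 69.3% to 84.1% (median 78.5%), so that the groups overlapped. In the 3-digit series, the 4 responders, in the order of their tags, stood at 76.7%, 82.2%, 87.2% and 83.1%, against a mean of 77.3% in 23 non-responders, a difference of 4.98 points (exact permutation test, two-sided, p = 0.0146). In the 4-digit series, the difference was 1.61 points, from 82.9% in 11 responders and 81.2% in 7 non-responders, and it did not pass the test (exact permutation test, two-sided, p = 0.275). The series themselves differed among non-responders, where the 4-digit tags were 3.93 points higher (exact permutation test, two-sided, p = 0.00554), and by 0.56 points among responders (exact, p = 0.752). With responses permuted within series, the difference was 3.63 points (p = 0.00824). The share was already higher in responders on Day 4, by 5.22 points (15 against 29 mice, permutation test, p = 0.00165).

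**Figure D2:**
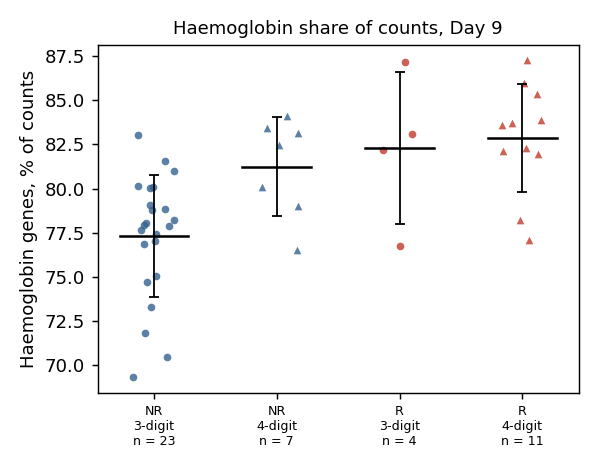
Percent of all counts taken by haemoglobin genes (y axis) in each Day 9 library, by response (NR, non-responders; R, responders) and ear tag series. Points are mice, horizontal lines are means and bars are SD; the 3-digit non-responders have the lowest mean (77.3%), the other means lie between 81.2% and 82.9%, and the groups overlap.

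The scale decides how these differences read. Counts were scaled by TMM, which sets the typical gene equal between groups, and CPM here is relative to the library size so scaled. On the deposited TPM scale, where haemoglobin transcripts are part of the total, the median gene was lower in responders by -0.59 on log2(TPM + 0.1), and 6456 genes were lower and 5 higher by limma at the same thresholds. TPM outside haemoglobin averaged 55690 in responders and 68314 in non-responders. The 5 genes higher on this scale were Apol11b, Apol11a, Apol10a, Apol10c-ps and Rn7s1 (named after their values were seen), and the same 5 were the only ones higher by a rank-sum test on TPM. Folds below are relative to the typical gene, on the TMM scale, unless TPM is named. The 458 genes had a median difference of 0.08 on log2(TPM + 0.1).

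Several apolipoprotein L genes had larger folds than the red cell genes named here. This family includes proteins that bind lipids and insert into membranes, and the mouse Apol genes lie in a cluster on chromosome 15. Of 7 tested, 3 passed both thresholds (42.9%, against 3.63% of all genes tested), and the median over the 7 was 0.54. Apol11b (ENSMUSG00000091694.9, chromosome 15 from 77633946 to 77643286, mm10) was at 144 to 1102 CPM in responders (median 589) and 45.5 to 490 CPM in non-responders (median 156). In 9 of 15 responders the value was above every non-responder, and in 14 above the non-responder median. The difference was 3.26-fold (log2 fold change 1.71, SE 0.24, adjusted p = 1.17e-05).

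Apol11a (chromosome 15 from 77508271 to 77518051) ran from 0.96 to 16.1 CPM in responders (median 6.20) and from 0.265 to 5.40 CPM in non-responders (median 0.954). Its log2 fold change of 2.16 (SE 0.31, adjusted p = 1.24e-05) was the largest among named genes with a mean of at least 1 CPM. All 15 responders were above the non-responder median. Apol10a (chromosome 15 from 77477047 to 77491069) ran from 0.928 to 11.5 CPM in responders (median 4.29) and from 0.226 to 3.93 CPM in non-responders (median 0.899), a log2 fold change of 1.91 (SE 0.27, adjusted p = 1.24e-05). The neighbouring pseudogene Apol10c-ps was higher by 1.84 on the log2 scale (SE 0.29, adjusted p = 1.85e-05). These genes are close copies of one another, so that reads shared between them may have been split. Per length, Apol11b was the highest of them, at 102 TPM on average in responders and 48.8 TPM in non-responders, and Apol11a and Apol10a were at 1.11 and 0.479 TPM in responders.

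The promoters of the Apol genes that moved together are shown because they are near-copies too, beside those of Alas2 and Rhag, a heme synthesis enzyme and a red cell membrane protein. Each is the 250 bases before the RefSeq start (GRCm38.p6), 5′ to 3′ on the strand of the gene, with matches to AGATAA or TGATAA, the letters that GATA factors such as the red cell regulator GATA1 bind, in capitals on either strand. The window of Apol11b lies at chr15:77643287-77643536 (minus strand) and that of Apol10a at chr15:77476797-77477046 (plus strand). Those of Alas2 and Rhag lie at chrX:150547167-150547416 and chr17:40810899-40811148 (plus strand).
Apol11b: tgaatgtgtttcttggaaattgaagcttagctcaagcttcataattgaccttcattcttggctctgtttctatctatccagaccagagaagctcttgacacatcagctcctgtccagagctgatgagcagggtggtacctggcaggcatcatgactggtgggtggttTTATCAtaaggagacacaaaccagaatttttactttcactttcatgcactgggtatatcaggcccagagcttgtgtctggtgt
Apol10a: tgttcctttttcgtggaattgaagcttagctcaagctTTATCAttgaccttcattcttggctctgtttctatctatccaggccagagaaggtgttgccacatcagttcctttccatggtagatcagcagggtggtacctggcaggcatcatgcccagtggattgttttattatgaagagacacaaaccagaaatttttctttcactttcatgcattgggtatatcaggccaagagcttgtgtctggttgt
Alas2: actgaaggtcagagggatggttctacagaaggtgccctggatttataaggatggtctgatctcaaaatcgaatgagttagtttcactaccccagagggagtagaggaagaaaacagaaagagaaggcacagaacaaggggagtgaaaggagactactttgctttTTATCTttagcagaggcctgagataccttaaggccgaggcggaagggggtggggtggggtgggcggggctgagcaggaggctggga
Rhag: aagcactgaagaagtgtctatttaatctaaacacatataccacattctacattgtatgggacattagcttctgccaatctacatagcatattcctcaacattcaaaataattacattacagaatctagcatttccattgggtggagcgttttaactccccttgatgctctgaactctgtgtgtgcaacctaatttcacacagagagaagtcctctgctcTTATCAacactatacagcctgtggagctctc
The Apol11a window (chr15:77508019-77508268, plus strand) had the same base as that of Apol11b at 250 of 250 positions. Such a match was present in 49 (15.6%) of the higher genes that had a promoter in the table, in 13 of 26 red cell maturation genes (50.0%), in 900 of 9463 genes tested (9.51%) and in 17.0% of all 27025 promoters. The match of Apol10a lies at another place in the copied sequence than that of Apol11b, so that these near-copies do not share it. The windows of Lockd and Cxcr6, genes named below that were also higher in responders, held 0 matches and are not shown. A match is a description of these letters only.

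Apol11b was also read within each ear tag series. In the order of their tags, the 4 responders of the 3-digit series stood at 144, 434, 654 and 489 CPM, against 45.5 to 305.8 CPM in 23 non-responders of that series (median 137). The mouse with the lowest Apol11b of the 4 also had the lowest haemoglobin share of all responders, and the mouse with the highest had the highest share of the 4. Among non-responders, 3 of the 7 Apol genes tested rose with haemoglobin share (7.16% of all genes did). None had a slope that passed among all 15 responders, where 2.06% of all genes rose. The difference between the groups in these slopes was not tested. In the 4-digit series, 11 responders ran from 289 to 1102 CPM (median 694) and 7 non-responders from 128 to 490 CPM (median 392). The log2 fold change was 1.58 in the 3-digit series (adjusted p = 0.0164) and 0.99 in the 4-digit series, where it did not pass (adjusted p = 0.256). With series and haemoglobin share as covariates it was 0.82 (p = 1.69e-05 before adjustment, adjusted p = 0.0561).

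The plot of CPM by library shows Apol11b beside genes of other groups.

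**Figure D3:**
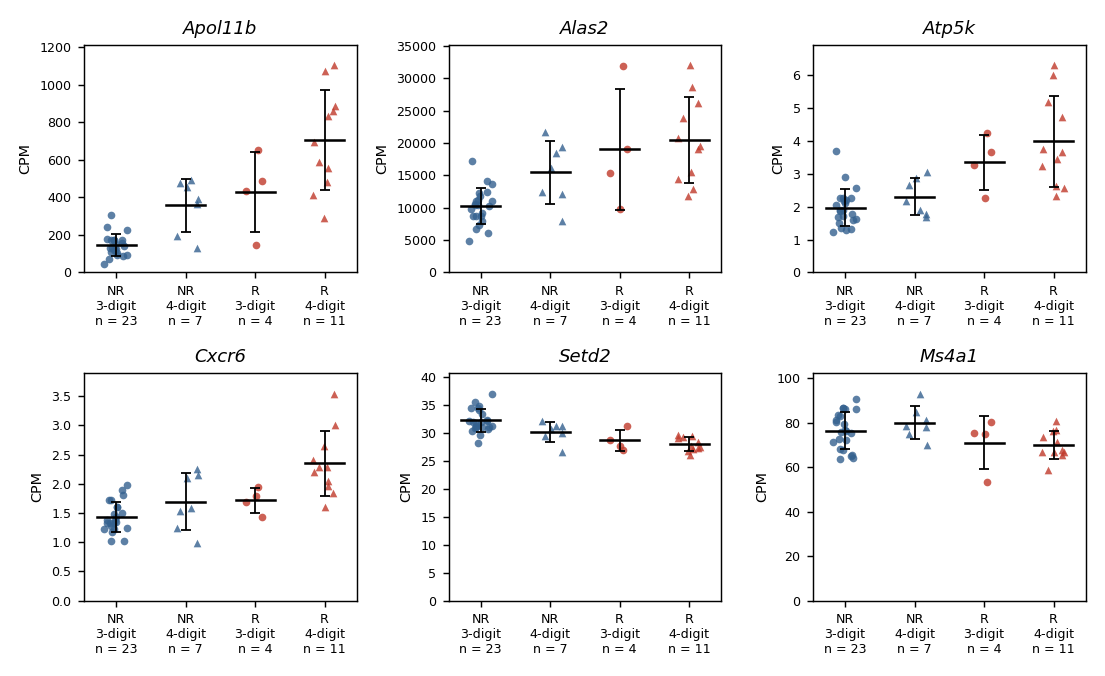
CPM (y axes, linear from 0) of 6 genes in each Day 9 library, by response (NR, non-responders; R, responders) and ear tag series. Points are mice, horizontal lines are means and bars are SD; Apol11b, Alas2, Atp5k and Cxcr6 have higher medians in responders within each series, and Setd2 and Ms4a1 lower ones.

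Of the lists examined, red cell maturation had the most genes at both thresholds. Of 38 tested, 33 were higher at both thresholds (86.8%, against 3.63% of all genes tested), 36 at adjusted p alone (9.43% of all genes) and none lower, with a median log2 fold change of 0.90. All 7 haemoglobin genes tested were higher, with a median of 0.85. With the tag series as a covariate 6 of them passed both thresholds (2.12% of all genes did), with a median over the 7 of 0.64. The beta globin gene Hbb-bt ran from 42212 to 164402 CPM in responders (median 87056) and from 21735 to 92027 CPM in non-responders (median 48113). Its log2 fold change was 0.88 (SE 0.17, adjusted p = 1.16e-04), and 6 responders were above every non-responder. Hbb-bs, the adult beta globin gene with the highest TPM, had a log2 fold change of 0.78 (SE 0.19, adjusted p = 0.00263) and mean TPM of 424221 in responders and 428410 in non-responders. Hbb-bs did not pass with the tag series as a covariate (0.61, adjusted p = 0.0595) or in the 3-digit series alone (0.93, adjusted p = 0.137). Reads of the paired globin copies may have been split between them.

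Alas2, the first enzyme of heme synthesis in red cells (chromosome X from 150547375 to 150570638), ran from 9815 to 31995 CPM in responders (median 19140) and from 4826 to 21703 CPM in non-responders (median 10808). Its log2 fold change was 0.81 (SE 0.16, adjusted p = 1.19e-04), and the groups overlapped, with 5 responders above every non-responder. Genes of the red cell membrane and its skeleton were among those called. Slc4a1, the anion exchanger of the red cell membrane, had medians of 781 and 288 CPM (log2 fold change 1.05, adjusted p = 6.1e-05). Dmtn, a protein of the membrane skeleton, had medians of 10.0 and 4.48 CPM (log2 fold change 0.98, adjusted p = 4.01e-05).

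Other red cell genes lay in the same range. Car2, a carbonic anhydrase, had a log2 fold change of 1.11 (SE 0.19, adjusted p = 4.14e-05). Rhag was higher by 1.08, Tmod1, which caps actin filaments of the membrane skeleton, by 1.09, and Cmas, which activates sialic acid, by 1.08. Fam210b, a mitochondrial protein of red cell differentiation, was higher by 0.92, and Bnip3l, which marks mitochondria for removal in reticulocytes, by 0.82. Gata1, the regulator named above, was higher by 0.58 (adjusted p = 2.36e-04), the red cell transcription factor Klf1 by 0.79 (adjusted p = 0.0311) and the transferrin receptor Tfrc by 0.40 (adjusted p = 0.0139). Klf1 did not pass with the tag series as a covariate (0.79, adjusted p = 0.103), and neither did Tfrc (0.29, adjusted p = 0.204). Some genes named by other lists followed the same pattern. Cd24a, a surface glycoprotein of B cell precursors and of red cells, was the only B cell list member at 1.5-fold or more (log2 fold change 0.85, adjusted p = 5.83e-05), and Ackr1, a chemokine-binding receptor of red cells, was higher by 1.07 (adjusted p = 2.55e-05).

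Genes of the respiratory chain were in part higher. Of 78 nuclear genes of the respiratory chain and ATP synthase, 15 passed both thresholds (19.2%, against 3.63% of all genes tested) and 38 passed at adjusted p alone (9.43% of all genes), all higher, with a median log2 fold change of 0.19. These counts were 8 and 31 with the tag series as a covariate (background 2.12% and 5.89%). Among non-responders, 28 of the 78 rose with haemoglobin share (7.16% of all genes did). Atp5k, a small subunit of ATP synthase (chromosome 5 from 108433244 to 108434448), ran from 2.25 to 6.29 CPM in responders (median 3.66) and from 1.22 to 3.70 CPM in non-responders (median 1.90). All 15 responders were above the non-responder median, at a log2 fold change of 0.91 (SE 0.12, adjusted p = 1.17e-05). Cox6b2, a cytochrome oxidase subunit, was higher by 1.16 (SE 0.17, adjusted p = 1.24e-05), with 10 responders above every non-responder. Uqcr11, a subunit of complex III, was higher by 0.63, and Atp5mpl, another small ATP synthase subunit, by 0.72. Smdt1, the regulator of the mitochondrial calcium uniporter, ran from 6.44 to 13.3 CPM in responders (median 10.5) and from 4.85 to 9.61 CPM in non-responders (median 6.48). It had one of the smallest p-values of all genes (log2 fold change 0.64, SE 0.08, adjusted p = 9.11e-06). Atp5b, the catalytic beta subunit and the list member with the highest TPM, was higher by 0.66 (adjusted p = 1.79e-05).

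Of 84 cytosolic ribosomal protein genes tested, 46 were higher at adjusted p alone, against 9.43% of all genes tested, with a median of 0.15. The 4 of them at 1.5-fold are 4.76% of the list, near the 3.63% of all genes. With the tag series as a covariate, 38 were higher at adjusted p alone and 1 at 1.5-fold (background 5.89% and 2.12%). Among non-responders, 31 of the 84 rose with haemoglobin share (7.16% of all genes did). Rplp2, an acidic protein of the large subunit, was higher by 0.62 (adjusted p = 2.55e-05). Of 78 mitochondrial ribosomal protein genes, 4 were higher and 1 lower at adjusted p alone, fewer than the 9.43% and 3.95% of all genes tested, and their median of -0.003 was close to that of all genes.

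The remaining genes with the smallest p-values came from several groups. The non-coding RNA Lockd, transcribed next to Cdkn1b (chromosome 6 from 134929092 to 134956798), ran from 1.57 to 6.94 CPM in responders (median 4.14) and from 0.844 to 3.61 CPM in non-responders (median 1.73), a log2 fold change of 1.21 (SE 0.16, adjusted p = 9.11e-06). The tetraspanin Cd82 was higher by 0.59 (adjusted p = 1.24e-05). Tg, the thyroglobulin gene, was higher by 0.77 at 1.08 against 0.649 CPM (medians). It overlaps Sla on the opposite strand and its source is uncertain, since the strandedness of the counting is not given in the sources used here. Mylk3, a myosin light chain kinase of heart muscle, was higher by 1.20 (adjusted p = 8.26e-05) and overlaps another gene on the opposite strand.

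The signal recognition particle RNA Rn7s1 was higher by 1.86 (SE 0.34, adjusted p = 5.82e-05) and its copy Rn7s2 by 1.46 (SE 0.45, adjusted p = 0.0205). The call of Rn7s2 was lost in DESeq2 (adjusted p = 0.0803), with the tag series as a covariate (0.268) and with 1 mouse left out (1.06, adjusted p = 0.137). Their values were the same in all 4 responders of the 3-digit series (1.26, 1.53, 5.23 and 3.55 CPM), though not their folds over all mice, given above. How reads were divided between the copies is not given in the sources used here, so that both values are uncertain. Such RNA is not polyadenylated as a rule, and the amount carried through polyA selection was not measured.

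Genes of cell division were in part higher. Of 34 tested, 9 were higher at adjusted p alone and 6 of these at 1.5-fold (17.6%), with a median of 0.08, against 9.43% and 3.63% of all genes tested. The counts were 7 and 6 with the tag series as a covariate (background 5.89% and 2.12%). Of the 34, 8 rose with haemoglobin share among non-responders (7.16% of all genes did). The proliferation marker Mki67 ran from 8.79 to 36.1 CPM in responders (median 15.6) and from 5.55 to 17.9 CPM in non-responders (median 8.40), a log2 fold change of 0.76 (SE 0.13, adjusted p = 4.22e-05). Tpx2, a spindle protein, was higher by 0.74 (adjusted p = 1.56e-05) and the mitotic cyclin Ccnb2 by 0.89 (adjusted p = 5.7e-05). Of 31 histone genes, 11 were higher at adjusted p alone and 4 at 1.5-fold (12.9%, same background), among them Hist3h2ba, higher by 1.01 (adjusted p = 2.04e-05). Of these histone genes, 4 and 1 passed with the tag series as a covariate (background 5.89% and 2.12%), and 6 rose with haemoglobin share among non-responders.

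Amino acid stress and folate genes gave 9 of 27 higher and none lower at adjusted p alone, 6 of them at 1.5-fold (22.2%, against 3.63% of all genes tested, and 9.43% at adjusted p alone). Among non-responders, 8 of the 27 rose with haemoglobin share, against 7.16% of all genes tested. Slc3a2, a subunit of amino acid transporters, was higher by 0.62 (adjusted p = 8.04e-05), Pck2, a mitochondrial enzyme of phosphoenolpyruvate synthesis, by 0.58 and the tRNA synthetase gene Nars by 0.30. Mthfd2, a mitochondrial folate enzyme, was higher by 0.87 (adjusted p = 0.00314). The list as a whole had a median of 0.01. With the tag series as a covariate, 5 were higher at adjusted p alone and none at 1.5-fold (background 5.89% and 2.12%).

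Of 47 interferon-stimulated genes, 7 were higher and 3 lower at adjusted p alone (background 9.43% and 3.95%), with a median of -0.07. Of the higher ones, 2 passed at 1.5-fold (4.26%, against 3.63% of all genes tested). With the tag series as a covariate, 2 were higher and 4 lower at adjusted p alone (background 5.89% and 1.57%). The 2 at 1.5-fold without covariates were the antiviral genes Rsad2 (log2 fold change 0.91, SE 0.17, adjusted p = 1.04e-04) and Isg15 (0.88, SE 0.17, adjusted p = 1.12e-04). Rsad2 ran from 477 to 2167 CPM in responders (median 1320) and from 224 to 1327 CPM in non-responders (median 589). Both also increased with haemoglobin share among non-responders, by 0.55 and 0.54 on the log2 scale per SD of the share. The RNA sensor Ddx58, in contrast, was lower by -0.13 (adjusted p = 0.00114), with 1 responder above the non-responder median.

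T cell effector genes differed by small folds. Of 23 cytotoxic effector genes, 5 were higher at adjusted p alone, none at 1.5-fold and none lower, with a median of 0.11 (background 9.43% and 3.63% higher and 3.95% lower). Cxcr6, a chemokine receptor of effector and tissue-homing T cells, ran from 1.44 to 3.54 CPM in responders (median 2.04) and from 0.979 to 2.25 CPM in non-responders (median 1.41). All 15 responders were above the non-responder median (log2 fold change 0.55, SE 0.10, adjusted p = 7.78e-05). Cxcr6 overlaps Fyco1 on the opposite strand, as Alas2, Ackr1 and Gp1bb overlap Apex2, Cadm3 and Sept5, so that reads of such partners cannot be told apart if the counting ignored strand. Cxcr3, a receptor for interferon-induced chemokines, was higher by 0.36 (SE 0.09, adjusted p = 0.00462) and granzyme B (Gzmb) by 0.25 (SE 0.08, adjusted p = 0.0251). The chemokine Ccl5 was higher by 0.28 (adjusted p = 0.0347) and the granule gene Nkg7 by 0.21 (adjusted p = 0.047). Klrg1, a receptor of late effector cells, was higher by 0.36 (adjusted p = 0.033). None of these 6 genes had a slope on haemoglobin share among the 30 non-responders that passed the test, the largest being 0.11 per SD for Cxcr3 (adjusted p = 0.218). Of the 6, Klrg1, Gzmb, Nkg7 and Ccl5 missed the threshold with 1 mouse left out (adjusted p = 0.0846, 0.0665, 0.0963 and 0.0782). Cxcr6 alone passed with haemoglobin share as a covariate (adjusted p = 0.0123), where the others ran from 0.086 (Gzmb) to 0.132 (Ccl5), with Klrg1 at 0.128, Nkg7 at 0.117 and Cxcr3 at 0.105.

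On the TPM scale all 6 had negative differences, from -0.14 (Cxcr6) to -0.49 (Nkg7) on log2(TPM + 0.1), less so than the median gene at -0.59. With the series as a covariate, Cxcr6 kept a log2 fold change of 0.38 (adjusted p = 0.0203), and the other 5 no longer passed, with Cxcr3 at 0.24, Gzmb at 0.17, Ccl5 at 0.34, Nkg7 at 0.23 and Klrg1 at 0.29. In the 3-digit series, Cxcr6 had a log2 fold change of 0.25 (adjusted p = 0.501) and in the 4-digit series of 0.49 (adjusted p = 0.317). The median of the cytotoxic list was -0.07 in the 3-digit and 0.26 in the 4-digit series.

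Pdcd1, which encodes PD-1, the target of the antibody, was higher by 0.95 (SE 0.25, adjusted p = 0.00653), from 0.0478 to 0.758 CPM in responders (median 0.209) and from 0.0241 to 0.295 CPM in non-responders (median 0.144). At these levels a library holds few reads of the gene. Within the 3-digit series its log2 fold change was -0.43 (adjusted p = 0.791), with responders at 0.11, 0.0478, 0.166 and 0.113 CPM, and within the 4-digit series it was 1.03 (adjusted p = 0.329). It did not pass with the tag series as a covariate (0.50, adjusted p = 0.385) or with haemoglobin share (0.75, adjusted p = 0.174). It was the only one of 19 checkpoint genes called (5.26%, against 3.63% of all genes tested). Of 25 genes of the T cell receptor complex and its signalling, 1 was higher and none lower at adjusted p alone, with a median of 0.005 (background 9.43% higher and 3.95% lower).

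Of 28 B cell identity genes, 2 were lower and 1 higher at adjusted p alone, with a median of -0.10, against 3.95% lower and 9.43% higher of all genes tested. The lower ones were Ebf1 (-0.23, adjusted p = 0.00244) and Bach2 (-0.18, adjusted p = 0.0282), transcription factors of B cells, and neither was called with the tag series as a covariate (adjusted p = 0.0725 and 0.52). Ms4a1, which encodes CD20, had a log2 fold change of -0.14 (adjusted p = 0.0594), and the IgM heavy chain gene Ighm one of -0.12 (adjusted p = 0.114). Of 7 immunoglobulin heavy constant genes, only Ighg2b was called, higher by 0.57 (SE 0.18, adjusted p = 0.0232; 0.39 and adjusted p = 0.296 with the series as a covariate, and adjusted p = 0.0581 with 1 mouse left out), and none of 105 immunoglobulin variable genes was (background 9.43% higher and 3.95% lower).

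The gene signatures that the study drew from single cells of a separate cohort were examined on these libraries too. Of 154 tested members of the effector memory T cell signature, 29 were higher and 1 lower at adjusted p alone, 5 of them at 1.5-fold, and the median was 0.06. The 5 are 3.25% of the list, against 3.63% of all genes tested, and at adjusted p alone the shares over all genes tested were 9.43% higher and 3.95% lower. With the tag series as a covariate, 13 members were higher, 2 of them at 1.5-fold (background 5.89% and 2.12%). The members with the smallest p-values were Ndufa13, a subunit of complex I (higher by 0.46), S100a13 (0.83) and Myl6, a myosin light chain (0.64). All 3 also rose with haemoglobin share among non-responders, by 0.13, 0.35 and 0.30 per SD. Of 127 tested members of the B cell signature, 5 were higher and 15 lower at adjusted p alone, with a median of -0.07, and its 3 members at 1.5-fold were all higher. With the tag series as a covariate, 4 were higher, 1 was lower and none passed at 1.5-fold (background 5.89% higher, 1.57% lower and 2.12% higher at 1.5-fold). Those with the smallest p-values were Serinc3 (0.61), Ptp4a3 (0.73) and Pkig (0.27), of which the first pair passed 1.5-fold.

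Platelet genes gave 11 of 28 higher at adjusted p alone, against 9.43% of all genes tested, with a median of 0.34. At 1.5-fold 1 passed, 3.57% of the list against 3.63% of all genes. The call at 1.5-fold was Gp1bb, a subunit of the von Willebrand factor receptor (log2 fold change 0.65, SE 0.14, adjusted p = 6.71e-04). Treml1, a receptor of platelet granules, was higher by 0.44 and Gp9, another receptor subunit, by 0.39. None of the 28 passed with the series as a covariate, where the median was 0.18 and 5.89% of all genes were higher at adjusted p alone. None of 30 neutrophil, 22 classical monocyte, 13 MHC class II or 18 Toll-like receptor genes was called in either direction, with medians of -0.003, -0.001, -0.02 and -0.06.

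**Figure D4:**
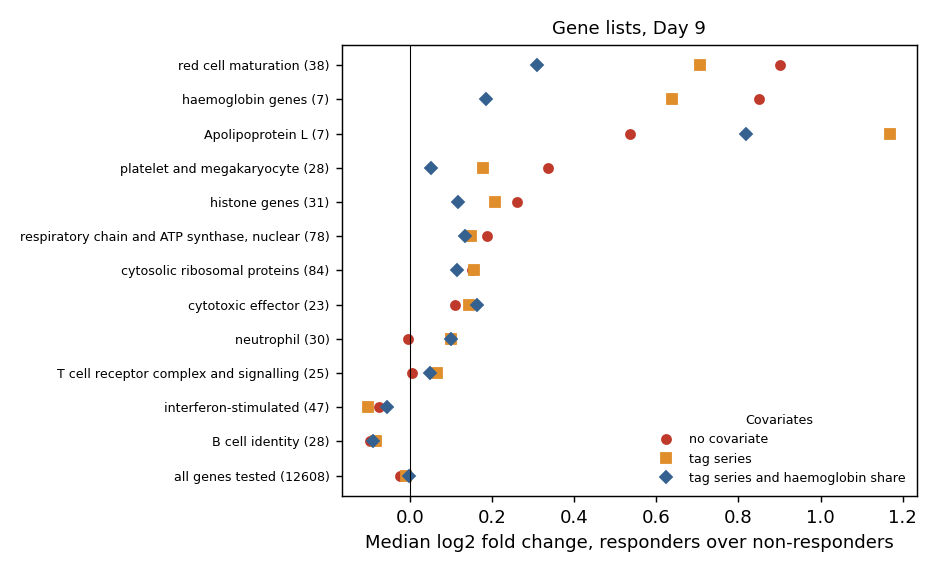
Median log2 fold change of responders over non-responders (x axis) for 12 gene lists and for all genes tested, with the number of genes tested in brackets. Circles are without covariates, squares with the tag series and diamonds with the tag series and haemoglobin share. The red cell list moves from 0.90 to 0.71 and 0.31, and the cytotoxic effector list lies between 0.11 and 0.16. Haemoglobin share is itself a red cell measure, so that the fall of the red cell list with it is not a separate result. Within the 3-digit and 4-digit series (not plotted), the cytotoxic medians were -0.07 and 0.26.

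The genes lower in responders formed a separate kind of group. The 2 at 1.5-fold or more, Efnb2 (-0.83, adjusted p = 0.027) and Foxd4 (-0.64, adjusted p = 0.048), were at medians of 0.0894 and 0.192 CPM in responders, levels at which a library holds few reads. Neither passed with the tag series as a covariate (adjusted p = 0.292 and 0.293), and Foxd4 also missed the threshold with RLE factors (0.052) and with 1 mouse left out (0.0831). The 12 with the smallest p-values were Setd2, Smchd1, Tnks, Osbp, Alg10b, Phip, Ireb2, Zfp451, Zfp106, Zfp292, Arid4a and Man2a1, which were lower by 0.14 to 0.21 on the log2 scale. Setd2, the histone H3 lysine methyltransferase that marks transcribed genes, ran from 26.1 to 31.3 CPM in responders (median 27.8) and from 26.7 to 37.1 CPM in non-responders (median 31.3). No responder was above the non-responder median (log2 fold change -0.17, SE 0.03, adjusted p = 4.21e-05). Smchd1, which keeps the inactive X chromosome silent, was at -0.14 (adjusted p = 5.65e-05) and Phip, a chromatin reader, at -0.18 (adjusted p = 1.28e-04). Zfp451, a SUMO ligase, was at -0.21 (adjusted p = 1.72e-04). Lower genes were long, with a median exon length of 7925 bases for the 498 genes called at adjusted p alone, against 2948.5 bases for the 458 higher genes and 4302.5 bases over all genes tested. The part of transcript length in these differences was not tested.

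How far the difference moved with haemoglobin was read from the non-responders alone. Among these 30 mice, 903 of 12608 genes (7.16%) rose and 290 (2.3%) fell with haemoglobin share at adjusted p of at most 0.05, 54 of them (0.428%) by at least 1.5-fold per SD. Of the 458 genes higher in responders, 414 (90.4%) rose with it and none fell, with a median slope of 0.46 on the log2 scale per SD of the share. The 4-digit tags had the higher share among these mice, so that the slopes were also fitted with the tag series as a covariate, where 750 genes (5.95%) rose and 256 (2.03%) fell. Of the 458 genes, 385 (84.1%) rose with the share there and none fell. Haemoglobin genes are themselves part of the share, so that their own slopes carry no separate information. Among the 15 responders, 149 of the 458 genes (32.5%) rose with the share, against 2.06% of all genes tested, and 98.3% had a positive slope, against 43.8% of all genes tested. The part of red cell content in the difference cannot be told apart from response by these libraries, since the share differed between the groups.

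**Figure D5:**
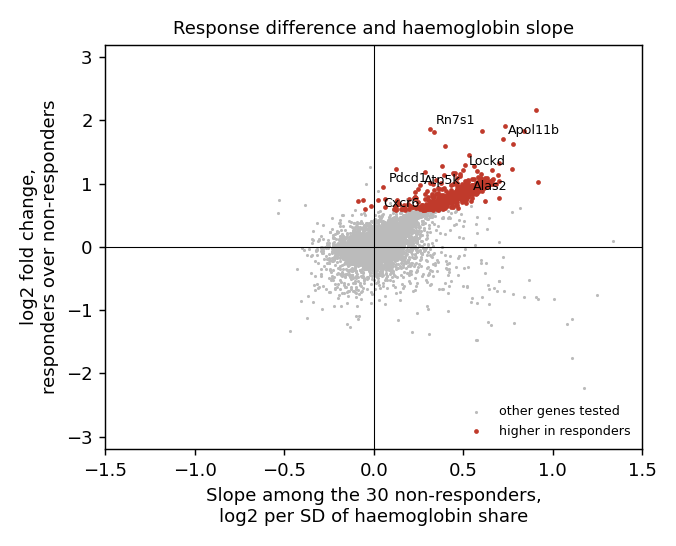
Log2 fold change of responders over non-responders (y axis) against the slope of each gene on haemoglobin share among the 30 non-responders, in log2 per SD of the share (x axis), for the 12608 genes tested. Red points are the 458 genes higher in responders, of which 414 rose with the share; Cxcr6 and Pdcd1 lie near a slope of 0 (0.02 and 0.05).

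The other 44 of the 458 genes showed no rise with haemoglobin among non-responders that passed the test, though 90.9% of them had a positive slope. They were less abundant, with a median of 0.349 CPM against 19.0 CPM in the 414 genes. They included 10 pseudogenes, against 21 of the 414 and 266 of all 12608 genes tested. Among them were Klf1, Pdcd1, Rn7s1, Rn7s2, Gp1bb and mt-Atp8. With haemoglobin share as a covariate, 27 genes were higher (0.214%) and 2 lower (0.0159%) at both thresholds, 339 were higher (2.69%) and 74 lower (0.587%) at adjusted p alone, and 26 of the 27 were among the 458. Lockd (0.73), Apol11b (1.05), Atp5k (0.70), Apol10a (1.36), Apol11a (1.38), Cox6b2 (0.79) and Apol10c-ps (1.26) had the smallest p-values among those 29, with adjusted p from 0.00339 to 0.0106.

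The ear tag series was examined in the same way. With the series as a covariate, 267 genes were higher (2.12%) and 6 lower (0.0476%) in responders at both thresholds, 742 were higher (5.89%) and 198 lower (1.57%) at adjusted p alone, and 264 of the 267 were among the 458. Of 38 red cell maturation genes, 29 passed both thresholds there, with a median of 0.71. The series coefficient of that fit was broader than that of response, with 1536 genes against 940 at adjusted p alone. In the 4-digit tags 113 genes were higher (0.896%) and 348 lower (2.76%) at both thresholds, and 5.86% higher and 6.32% lower at adjusted p alone. Apol11a was higher in the 4-digit tags by 1.81 (adjusted p = 7.58e-08), and the iron-binding protein gene Ltf of neutrophils and secretions was lower by -4.03 (adjusted p = 1.78e-10). Frmpd1 (-6.78), Clca3b (-5.27) and Emp1 (-3.60) were also lower there, and Scd3 (5.56) and Bpifa6 (5.16) were higher. Series and response thus overlapped for the Apol genes, and with 7 of 30 non-responders and 11 of 15 responders in the 4-digit series they can be separated only in part.

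Within the 3-digit series, 344 of 13629 genes were higher (2.52%) and 3 lower (0.022%) at both thresholds, with 3.96% higher and 0.205% lower at adjusted p alone (4 against 23 mice). That count rested on single mice. Without the third or without the fourth of its responders in tag order no gene passed, and without the first, the responder with the lowest haemoglobin share, 522 did. Within the 4-digit series (11 against 7 mice), no gene passed in edgeR's test, with 1443 genes at an unadjusted p under 0.05, and DESeq2 called 3 genes, all higher. Directions were nonetheless shared. Of the 450 higher genes tested in both series, 444 had a positive log2 fold change in each, with medians over the higher genes of 0.84 in the 3-digit and 0.45 in the 4-digit series. These libraries chose the genes, so that the shared direction is a description. The difference between the series was tested directly, and no gene had an interaction of response and series that passed (edgeR, 683 genes at an unadjusted p under 0.05, smallest adjusted p 0.739).

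Whether the Day 9 difference departed from that of Day 4 was tested over 89 libraries of Days 4 and 9. No gene passed for a change of the responder minus non-responder difference between the days (13238 tested by edgeR, 591 at an unadjusted p under 0.05, smallest adjusted p 0.174). With each mouse as a block, no gene passed either (558 at an unadjusted p under 0.05, smallest adjusted p 0.334). With the series and its change between the days as covariates, 2 genes passed, Scd3 (-5.73, adjusted p = 0.0464) and the predicted gene Gm43375 (1.58). On Day 4 alone, 493 of 12620 genes tested were higher and 38 lower at both thresholds, and 0 passed with both covariates. Of the 458 genes higher on Day 9, 450 were tested on Day 4. Of these, 391 were called higher there too, against 493 of 12346 over all genes tested, and 445 had a positive fold change. The days share 44 mice, so that their values are given side by side. Apol11b was at a log2 fold change of 1.51 on Day 4 and 1.71 on Day 9, and Alas2 at 1.05 and 0.81. Cxcr6 was at -0.02 on Day 4 (adjusted p = 0.932) and 0.55 on Day 9, a change of 0.57 (SE 0.13) that did not pass after adjustment (p = 2.91e-05, adjusted p = 0.192). With the mouse as a block its p was 2.52e-05 and its adjusted p 0.334. Pdcd1 was at -0.06 on Day 4 and 0.95 on Day 9, a change with p = 0.00949 before adjustment and an adjusted p of 1.00. The median of the red cell maturation list was 1.11 on Day 4 and 0.90 on Day 9.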

How the data were processed

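The authors aligned bulk RNA-seq reads to mm10 (STAR, per the submitters' processing notes) and deposited estimated counts per gene, 3.19% of which are not whole, and TPM; the counter is not given in the sources used here. All 55450 gene identifiers matched GENCODE M21. Counts were rounded and tested with edgeR 4.0.16 (quasi-likelihood test, TMM, filterByExpr, Benjamini-Hochberg adjustment over all genes tested), and genes were counted at adjusted p of at most 0.05 and at least 1.5-fold. Every adjusted p without a named tool comes from this test, and CPM are TMM-scaled. DESeq2 1.42.0, and limma 3.58.1 and a rank-sum test on TPM, served as alternatives. Single values were compared by two-sided permutation of 100000 resamples (scipy 1.17.1), or exactly within a tag series. Scripts were tested on simulated data. Replicates are separate mice. Spread between mice holds biological and technical error together.

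Members and the 47 gene lists were chosen with earlier results of these data known. Named genes were the 12 higher with the smallest p, the 8 others with the largest fold at a mean of at least 1 CPM, the 12 lower with the smallest p, and per list up to 3 with the smallest p and that with the highest TPM, leaving out predicted and clone names. Slc4a1, Gata1, Klf1, Tfrc, Bnip3l, Ms4a1, Mthfd2, Efnb2, Foxd4 and the genes of the series contrast were chosen after their values were seen. A few genes that the rule names are not reported here. The 44 mice bled on both days pair by ear tag: deviations of the same mouse correlated from -0.19 to 0.38 (median 0.09).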

Additional observations from a re-analysis of the deposited data

How the results depend on the processing

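The count of 460 genes (458 higher, 2 lower) stayed within 1.5 times of itself with RLE factors, DESeq2, looser and stricter count filters, the 3-digit tags alone and haemoglobin genes removed before scaling, and ran from 421 to 530 with each mouse left out, with 1 to 4 lower genes save without the second 3-digit responder in tag order (495 higher, 34 lower). It was 273 with the tag series as a covariate, 29 with haemoglobin share, and 0 with both or with the 4-digit tags alone (3 by DESeq2). It was 0 with haemoglobin share as a covariate within either series, 1687 at adjusted p alone, 787 on log2(TPM + 1) (3 higher, 784 lower), 6461 on log2(TPM + 0.1) and 5984 by the rank-sum test on TPM (5 higher, 5979 lower). The 3-digit count of 347 ran from 0 to 522 with 1 of its 4 responders left out, and the 273 genes became 0 with haemoglobin share added. The within-series fits with haemoglobin share or DESeq2, those leaving out a 3-digit responder and the haemoglobin slopes were chosen after seeing the data. The haemoglobin difference ran from 4.15 to 4.90 points with each mouse left out and fell short of the test in the 4-digit series (1.61). The interaction of response and day gave 0 genes with the mouse as a replicate block (paired by ear tag) and 2 with the series and its change as covariates (1 in each direction). Single genes were followed through these settings for 119 genes, not all of which are reported above. Of these, Pdcd1 (-0.43) and mt-Atp8 (-0.15) had the opposite sign in the 3-digit series, and 111 no longer passed with both covariates. Some folds were not smaller there (Phip -0.18 and -0.19, Zfp451 -0.21 and -0.22, Nkg7 0.21 and 0.25, without and with them). The cause of these changes was not tested. Depth outside haemoglobin, 4795959 to 14763151 counts with the lower median in responders, limits the precision for genes of low level.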
